A study of Mus musculus with 18 samples.

Results

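The contractile apparatus of skeletal muscle was followed through 3 fat depots of the mouse with 36 genes, taken by symbol from the 45151 symbols found in the tables of every depot. The genes encode myosin heavy and light chains, skeletal actin and the troponins, the scaffold proteins of the sarcomere, the calcium handling proteins of the muscle fibre, and a few muscle proteins of energy supply. In muscle, myosin heavy chains pull on actin filaments when calcium leaves the sarcoplasmic reticulum and binds troponin, and creatine kinase restores the ATP that is used. Fast and slow fibres use different genes for the same task, so that the mixture of myosins and troponins in an RNA sample reflects the fibres it came from. Fat cells are not contractile, but brown fat and muscle arise from related precursors and share several mitochondrial genes.

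RNA was sequenced from inguinal white adipocytes (iWAT, n = 6), epididymal white adipocytes (eWAT, n = 6) and brown adipose tissue (BAT, n = 6) of wild-type male C57BL/6J mice, 16 weeks old, on regular chow. The white samples were floating adipocytes obtained by collagenase digestion, whereas BAT was frozen as whole tissue, so depot and preparation cannot be told apart. Sample titles carry a number that is read here as the mouse: mice 7, 11, 12, 13, 14 and 15 gave iWAT, mice 7, 8, 11, 13, 14 and 15 gave eWAT, and mice 6, 7, 8, 11, 12 and 13 gave BAT. The levels below are the RPKM values of the authors (reads scaled by the length of the gene and by the depth of the sample), from a row of merged exons in iWAT and BAT and from the most-read transcript in eWAT. Depth, as the read total that the RPKM values imply, ranged over 22929576 to 32141048 for iWAT, 26607733 to 34048018 for eWAT and 26706786 to 34512470 for BAT. The defining markers fitted the labels, with a summed RPKM of 8 brown adipocyte genes of 1900 to 2505 in BAT, 26.7 to 38.7 in iWAT and 4.94 to 12.3 in eWAT. The BAT library of mouse 12 stood apart from the rest for every one of the 36 genes, and the main comparisons with BAT are given with and without it.

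Promoters of the genes were read from the RefSeq windows of build GRCm38.p6, which run from 250 bases before the annotated start site to 50 bases after it, and 29 of the 36 genes had such a window. The CArG box, the site read by serum response factor, was searched on both strands and was present in 16.7% of the 36 windows of these 29 genes (some have several), against 1.63% of all 32851 windows. Its 5 genes were Acta1, Ldb3, Myh4, Myl3 and Myom1. These promoters are shown because they hold the box. Acta1 and Ldb3 were the 2 genes tested that did not pass between white adipocytes and BAT. Myl3 and Myom1 were among the genes that kept a level in BAT samples where most of the set was near 0. Myh4, a motor gene, was itself near 0 there. Des, Myl1, Eno3 and Actn2 also kept a level and had no match, and a link of the box to these levels was not tested. Ckm is shown as a muscle gene with no match in its window. Each line gives the 150 bases that precede the start site, from 5′ to 3′, with the CArG box in capitals.
Acta1 (skeletal alpha-actin), chr8:123894776-123894925, minus strand: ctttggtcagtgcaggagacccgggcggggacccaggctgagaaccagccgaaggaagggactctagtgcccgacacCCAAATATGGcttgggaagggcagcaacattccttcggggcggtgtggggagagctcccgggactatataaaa
Ldb3 (a Z-disc protein), chr14:34588682-34588831, minus strand: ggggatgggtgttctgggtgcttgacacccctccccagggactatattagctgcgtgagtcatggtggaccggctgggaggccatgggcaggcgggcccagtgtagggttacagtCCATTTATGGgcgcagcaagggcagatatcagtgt
Myh4 (fast myosin heavy chain), chr11:67237662-67237811, plus strand: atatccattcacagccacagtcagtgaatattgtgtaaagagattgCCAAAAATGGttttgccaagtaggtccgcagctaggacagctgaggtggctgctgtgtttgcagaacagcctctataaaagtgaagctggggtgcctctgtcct
Myl3 (slow myosin light chain), chr9:110763528-110763677, plus strand: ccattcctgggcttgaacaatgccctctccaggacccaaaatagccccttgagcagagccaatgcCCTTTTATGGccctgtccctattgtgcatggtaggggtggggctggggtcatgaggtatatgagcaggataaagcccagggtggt
Myom1 (an M-band protein), chr17:71019407-71019556, plus strand: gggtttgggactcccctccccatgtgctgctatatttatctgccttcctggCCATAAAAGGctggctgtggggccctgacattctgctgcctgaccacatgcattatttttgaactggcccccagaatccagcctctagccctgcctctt
Ckm (muscle creatine kinase), chr7:19410944-19411093, plus strand: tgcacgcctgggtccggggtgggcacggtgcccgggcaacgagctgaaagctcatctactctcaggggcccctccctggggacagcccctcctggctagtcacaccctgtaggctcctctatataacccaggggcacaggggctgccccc

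The box began 73 bases before the start site in Acta1, 35 in Ldb3 (109 from its other annotated start site), 104 in Myh4, 85 in Myl3 and 99 in Myom1. The MEF2 box was found in 13.9% of the windows of these genes and in 3.19% of all windows, the TATAAA motif in 19.4% and 13.6%, and the E-box CANNTG, which myogenic factors bind, in 83.3% and 72.3%. These are matches of letters in a short window, and no test was made of them.

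Most of the muscle genes were near the limit of detection in white adipocytes, and in BAT they covered several orders of magnitude between mice. A mean RPKM of at least 1 was reached by 6 of the 36 genes in iWAT, by 6 in eWAT and by 35 in BAT, but by 17 in BAT without the sample of mouse 12. The median of the mean RPKM over the 36 genes was 6.63 in BAT (0.981 without mouse 12), and only 0.106 in iWAT and 0.0478 in eWAT. The RPKM summed over the 36 genes was 2870 in the BAT of mouse 12, 270 in mouse 8, 115 in mouse 6, 40.3 in mouse 11, 25.5 in mouse 7 and 24.4 in mouse 13. In iWAT the sum was 24.5 to 102, highest in mouse 12, and in eWAT it was 27.1 to 60.9, so that the BAT sums of mice 7 and 13 were near the lowest white sums. In such bulk samples, fewer cells of a type and less RNA per cell cannot be told apart.

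**Figure D1:**
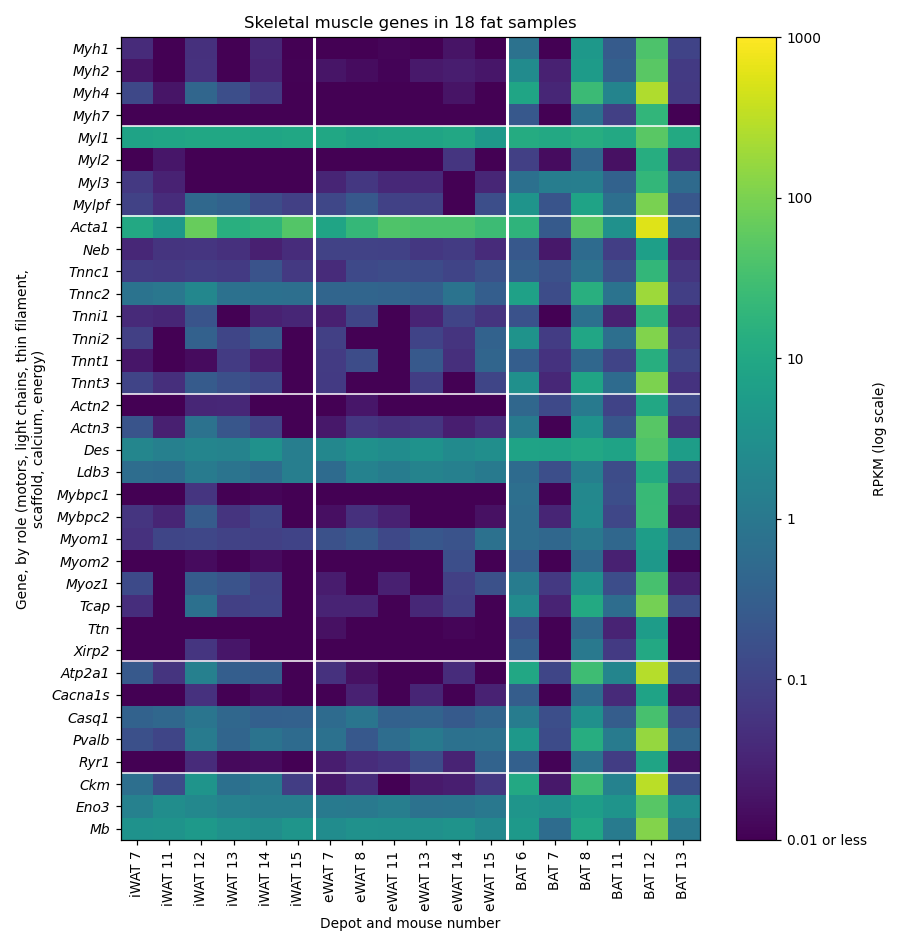
RPKM of the 36 muscle genes (lines, ordered by role) in the 18 samples (columns, by depot and mouse number), with colour on a log scale and values of 0.01 or less drawn at the lowest colour. The BAT sample of mouse 12 holds the highest BAT value of all 36 genes, and the lines of Acta1, Myl1, Mb, Des and Eno3 are bright in white adipocytes as well.

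In BAT the motor genes spanned several orders of magnitude. Myh4, the heavy chain of the fastest fibres (mm9, chromosome 11, 67051314 to 67073948, plus strand), had an RPKM of 249.6 in mouse 12, 26.0 in mouse 8, 8.79 in mouse 6, 1.78 in mouse 11, 0.0670 in mouse 13 and 0.0338 in mouse 7. The value of mouse 12 was thus 7375 times that of mouse 7, while mice 7 and 13 lay within the iWAT range of 0.00640 to 0.453. Myh2 was 51.8, Myh1 39.3 and Myh7, the slow heavy chain shared with heart, 19.7 in the BAT of mouse 12. Myh7 was listed at 0 in all 12 white samples and in the BAT of mouse 13. Heavy chains are near-identical in long stretches, so the split of reads between Myh1, Myh2 and Myh4, and between Myh7 and the cardiac Myh6, is uncertain.

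The other genes of high level in BAT were likewise highest in mouse 12, followed by mice 8, 6 and 11. Acta1 (chromosome 8, 126415667 to 126418651, minus strand), the actin of skeletal muscle thin filaments, was 576.5 in mouse 12, 49.8 in mouse 8, 17.9 in mouse 6, 3.37 in mouse 11, 0.629 in mouse 13 and 0.262 in mouse 7. Ckm, muscle creatine kinase (chromosome 7, 19996443 to 20006932, plus strand), was 310.3, 26.8, 10.5, 1.67, 0.167 and 0.0206 in the same mice. Atp2a1, the calcium pump of fast fibres, was 281.6, 28.0, 9.75, 1.90, 0.193 and 0.109. Tnnc2, the calcium-binding troponin of fast fibres, was 185.8, 14.6, 7.13, 0.818, 0.0842 and 0.146. Pvalb, a calcium buffer of fast fibres, was 160.2 in mouse 12 against 0.140 to 13.02 in the other mice. For Tnnc2, 74.0% of the exon bases overlap Ube2c on the other strand, for Ckm 31.9% overlap A930016O22Rik and for Atp2a1 21.9% overlap Rabep2, and reads of these neighbours and of the muscle genes cannot be told apart there.

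In the scaffold of the sarcomere and the calcium release machinery the spread varied between genes, the highest BAT value being 1738 times the lowest for Ttn, 101 times for Actn2, 13.1 times for Myom1 and 7.14 times for Des. Ttn, titin, the molecular spring of the sarcomere, was 5.86 in mouse 12, 0.498 in mouse 8 and 0.00337 in mouse 7, and Neb, nebulin, the ruler of the thin filament, was 6.69, 0.554 and 0.0212 in these mice. Tcap, which caps titin at the Z-disc, was 90.3, 10.8 and 0.0308. The myosin-binding proteins Mybpc1 and Mybpc2 were 23.8 and 24.3 in mouse 12 and 2.18 and 2.41 in mouse 8, the Z-disc protein Myoz1 was 34.9 and 3.35, and Xirp2 was 10.2 and 1.05. Of the calcium genes, Ryr1, the release channel of the sarcoplasmic reticulum, was 8.36 in mouse 12 and 0.0110 in mouse 7, Cacna1s, its voltage sensor, was 7.83 and listed at 0, and Casq1, the calcium store of fast fibres, was 34.7 and 0.157. Over the thin filament, Tnnt3 and Tnni2 of fast troponin were 103.5 and 114.3 in mouse 12, and Tnnt1, Tnni1 and Tnnc1 of slow troponin were 13.4, 17.9 and 20.6. Apart from Des, described below, none of these genes exceeded 0.877 RPKM in iWAT or 0.893 in eWAT.

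The upper places of this order were shared by most of the set. Each of the 36 genes was highest in mouse 12 and second in mouse 8, and 27 of them had mouse 6 in the third place and mouse 11 in the fourth. An RPKM of at least 1 was reached by 36 genes in mouse 12, 26 in mouse 8, 18 in mouse 6, 9 in mouse 11, 4 in mouse 7 and 4 in mouse 13. The mean over BAT was therefore a poor summary: Acta1 averaged 108.1 ± 230.3 (SD, n = 6) over all mice and 14.4 ± 21.1 (SD, n = 5) without mouse 12. Over 15845 symbols with at least 10 reads in every BAT sample, the median ratio of mouse 12 to the median of the other mice was 0.991, and 0.776% of these symbols exceeded 3-fold. Of 11196 other genes with a mean BAT RPKM of at least 1, 69 were at least 3-fold above the highest of the other mice in mouse 12, whereas all 36 muscle genes were.

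Slow fibre genes had a larger ratio of mouse 12 to mouse 8 than fast fibre genes. The fast genes were Actn3, Atp2a1, Casq1, Mybpc2, Myh1, Myh2, Myh4, Myl1, Mylpf, Myoz1, Pvalb, Tnnc2, Tnni2 and Tnnt3, and the slow genes were Myh7, Myl2, Myl3, Tnnc1, Tnni1 and Tnnt1. The ratio of the 2 samples had a median of 11.3 over the 36 genes, and 27 genes lay within 1.5 times of it. It was 4.12 to 13.99 for the 14 fast fibre genes, with a median of 10.5, and 14.6 to 29.7 for the 6 slow fibre genes, with a median of 27.5. Every slow gene thus had a higher ratio than every fast gene, but for Myl3 not beyond counting error. The 95% interval of Myl3, 10.92 to 19.99, overlapped that of Actn3 (12.38 to 15.87), the fast gene of highest ratio. The intervals of the other slow genes began at 16.43 (Tnni1) or above. Most slow genes had few reads in mouse 8, with 21 for Tnni1, 23 for Myl2, 24 for Tnnc1, 27 for Tnnt1 and 48 for Myl3. Among slow genes the ratio was 28.4 for Myh7 (95% interval 24.3 to 33.5, counting error only), 29.7 for the light chain Myl2, 29.3 for troponin T1 (Tnnt1), 26.6 for troponin C1 (Tnnc1), 25.3 for troponin I1 (Tnni1) and 14.6 for the light chain Myl3. Among fast genes it was 9.59 for Myh4 (9.29 to 9.90), 12.7 for Tnnt3, 12.4 for Tnni2 and 12.7 for Tnnc2. Against mouse 6 the ratio of mouse 12 had a median of 73.4 for slow genes, with a range of 29.3 to 147.1, and of 28.6 for fast genes, with a range of 4.48 to 50.1. In the BAT of mouse 11 slow and fast genes were not set apart. It held 0.128% (Myl2) to 1.87% (Myl3) of the mouse 12 value for slow genes, on 1 to 23 reads each. For fast genes it held 0.435% (Actn3) to 19.8% (Myl1). All these values compare libraries of different mice, so no test of the difference was made.

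**Figure D2:**
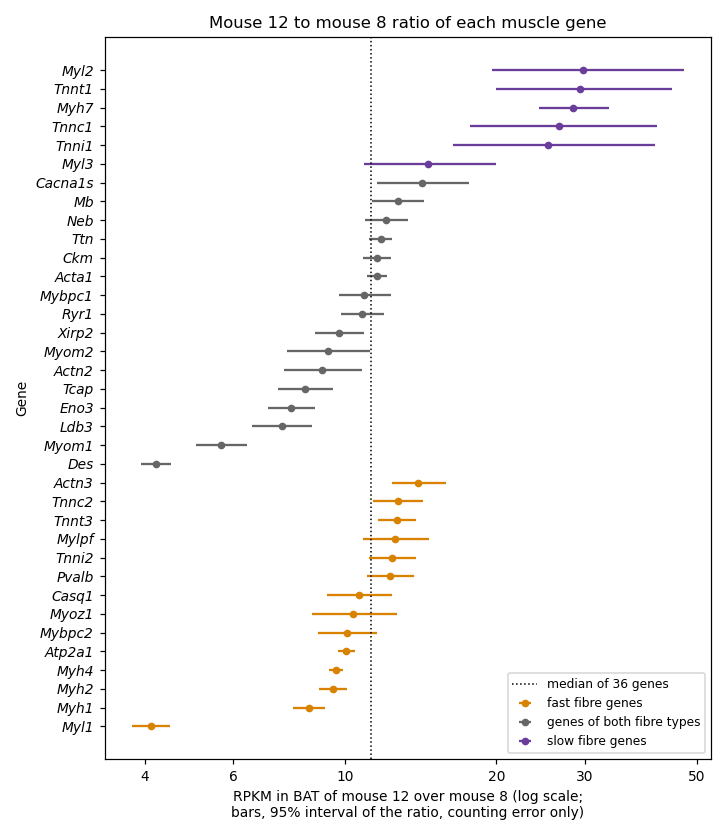
Ratio of RPKM in the BAT of mouse 12 to that of mouse 8 for each of the 36 genes (log axis), with 95% intervals for counting error only, in orange for fast fibre genes, grey for genes of both fibre types and violet for slow fibre genes. The 6 slow genes lie at 14.6 to 29.7, to the right of the median of 11.3 (dotted), and Myl1, Des and Myom1 lie furthest to the left.

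The fibre mixture can also be read within a sample, where depth cancels. Myh7 took 7.37% of all myosin heavy chain reads in the BAT of mouse 12 (Wilson 95% interval 7.18 to 7.57), 2.57% in mouse 8 (2.20 to 2.99), 2.59% in mouse 6 (2.05 to 3.26) and 4.80% in mouse 11 (3.22 to 7.10). The interval of mouse 12 did not meet those of mice 6, 8 and 11. The slow forms took 10.4% of the reads of troponins T and I in mouse 12 (9.96 to 10.95), 5.06% in mouse 8 (3.84 to 6.64), 6.31% in mouse 6 (4.48 to 8.82) and 10.0% in mouse 11 (5.15 to 18.5), so that for troponins mouse 11 could not be set apart from mouse 12. Within the fast heavy chains the mixture was more even, with Myh4 at 69.5% in mouse 6, 69.6% in mouse 8, 71.9% in mouse 11 and 70.9% in mouse 12. Myh2 took 24.0% in mouse 6 (22.4 to 25.6) and 17.3%, 16.2% and 17.4% in mice 8, 11 and 12. The BAT of mouse 13 gave Myh4 only 26.1% of 46 fast reads (15.6 to 40.3).

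A small number of genes did not fall with the others. None of the 36 had less than 3 times the median of the other mice in mouse 12, the limit set for calling a gene independent of the muscle pattern, so the genes described next were picked after their values were seen, as those that kept at least 1% of the mouse 12 value in mouse 7. There were 7 of them: Myl1 kept 19.1%, Des 18.03%, Myom1 7.89%, Eno3 6.49%, Myl3 6.45%, Ldb3 1.48% and Actn2 1.26%. Each of the other 29 genes kept less than 1%, with 0.00665% for Ckm and 0.0136% for Myh4.

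**Figure D3:**
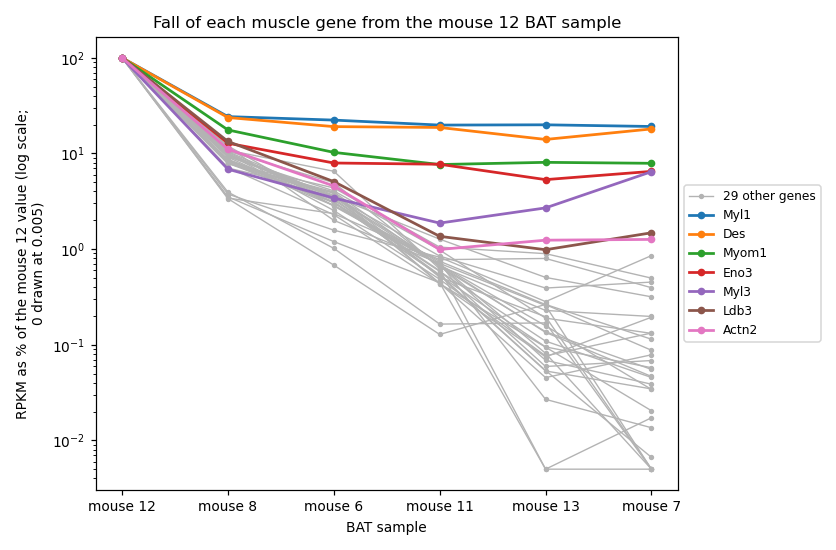
RPKM of each gene in the 6 BAT samples as a percentage of its value in mouse 12 (log axis, 0 drawn at 0.005), with mice ordered by the summed level of muscle genes except that mouse 13 precedes mouse 7. The coloured lines of Myl1 and Des level off between 14% and 25%, and the 29 grey lines are under 1% in mouse 7.

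Myl1, an alkali light chain of fast myosin (chromosome 1, 66970869 to 66991978, minus strand), was 53.7 in the BAT of mouse 12 and 10.3 to 13.04 in the other BAT mice, or 11.3 ± 1.15 (SD, n = 5). It was almost as high in white adipocytes, at 7.88, 8.89, 9.63, 9.37, 8.88 and 9.50 in iWAT of mice 7, 11, 12, 13, 14 and 15, and at 4.96 to 9.93 in eWAT. All 6 BAT samples were above all 12 white samples, by a small margin. Its partner in fast fibres, Mylpf, the regulatory light chain, was 100.1 in mouse 12 but only 0.198 and 0.228 in the BAT of mice 7 and 13 and at most 0.492 in iWAT. Des, desmin, the intermediate filament of all muscle and also of pericytes (chromosome 1, 75356904 to 75365154, plus strand), was 42.4 in the BAT of mouse 12 and 5.94 to 10.1 in the others, against 1.39 to 3.31 in iWAT and 2.08 to 3.51 in eWAT.

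Eno3, the muscle form of the glycolytic enzyme enolase, was 50.4 in the BAT of mouse 12 and 2.68 to 6.44 in the other mice, with 1.35 to 2.82 in iWAT and 0.784 to 1.37 in eWAT. Its BAT values overlapped those of iWAT, since mouse 11 had 2.82 in iWAT and mouse 13 had 2.68 in BAT. Myom1, myomesin of the M-band, was 6.04 in mouse 12, 1.06 in mouse 8 and 0.463 to 0.620 in the remaining BAT mice, against 0.0516 to 0.116 in iWAT. In eWAT Myom1 was 0.123 to 0.734, with mouse 15 above the BAT of mice 6, 7, 11 and 13. Its relative Myom2 was 4.74 in mouse 12 and listed at 0 in mice 7 and 13. Myl3 was 20.1 in mouse 12, 1.38 in mouse 8, 1.30 in mouse 7, 0.688 in mouse 6, 0.542 in mouse 13 and 0.376 in mouse 11, so that mouse 7 ranked just behind mouse 8. The slow light chain Myl2 was 0.0150 in mouse 7. Actn2, the alpha-actinin of the Z-disc in heart and all muscle fibres, was 10.2 in mouse 12 and 0.101 to 0.128 in mice 7, 11 and 13, while the fast fibre form Actn3 was 49.4 in mouse 12 and 0.0101 in mouse 7. The Actn2 values of mice 7, 11 and 13 rest on 20, 14 and 17 reads. There the signal of its highest exon was 10.1, 8.24 and 11.8 times that of the whole row. In mice 6, 8 and 12 it was 2.07 to 2.93 times.

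In white adipocytes Acta1 had the highest mean of the set, although Myl1 was higher in iWAT of mouse 11 and in eWAT of mouse 7. It was 10.6, 4.72, 68.2, 14.2, 18.3 and 46.6 in iWAT of mice 7, 11, 12, 13, 14 and 15, a mean of 27.1 ± 24.8 (SD, n = 6). In eWAT it was 8.45, 21.4, 42.2, 35.9, 37.4 and 26.4 in mice 7, 8, 11, 13, 14 and 15, a mean of 28.6 ± 12.5 (SD, n = 6). All white samples were above the BAT samples of mice 7, 11 and 13. No exon of Acta1 overlaps another annotated gene, and the reads were spread over its exons, the signal of the highest exon being 1.24 to 1.71 times that of the whole row in iWAT and 1.22 to 2.06 times in BAT.

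Acta1 and Ckm went apart in white adipocytes. The ratio of the RPKM of Acta1 to that of Ckm was 1.71, 1.86, 2.02 and 1.86 in the BAT of mice 6, 8, 11 and 12. In iWAT it was 15.6 in mouse 7, 34.2 in mouse 11, 17.7 in mouse 12, 20.2 in mouse 13, 18.2 in mouse 14 and 568.4 in mouse 15, where Acta1 had 1745 reads and Ckm 3. In eWAT Ckm had 0 to 3 reads in a sample, and the ratio was 405 to 1531 in the samples with any. The lowest white ratio was above those of these 4 BAT samples, and the remaining BAT samples gave 3.77 in mouse 13 and 12.7 in mouse 7, the latter on 13 and 1 reads.

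Acta2, the smooth muscle actin of vessels and pericytes, is close to Acta1 in its coding sequence and is given beside it. Acta2 was 3.29, 2.02, 18.9, 9.49, 10.2 and 16.9 in iWAT of mice 7, 11, 12, 13, 14 and 15, and the mice had the same order for Acta1 and Acta2, with mouse 12 first and mouse 11 last. In eWAT Acta2 was 24.2 to 83.9, lowest in mouse 7 for both actins, and in BAT it was 2.69 to 4.53. The ratio of Acta1 to Acta2 was 1.49 to 3.61 in iWAT and 0.349 to 0.581 in eWAT, and in BAT it ran from 0.0842 in mouse 7 to 179.9 in mouse 12. The summed RPKM of 9 smooth muscle and pericyte genes was 23.2 to 122.1 in iWAT, 107.7 to 203.5 in eWAT and 75.3 to 125.1 in BAT. These sums include Acta2. In the edgeR comparison described below, 8 of the 9 were lower and 1, Acta2, was higher in iWAT than in BAT. Of all rows 33.6% were lower and 34.0% higher. In eWAT 4 were lower and 1, again Acta2, was higher than in BAT, beside 34.7% and 35.6% of all symbols. The part of Acta2, or of cells that carry it, in the values of Acta1 was not tested.

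**Figure D4:**
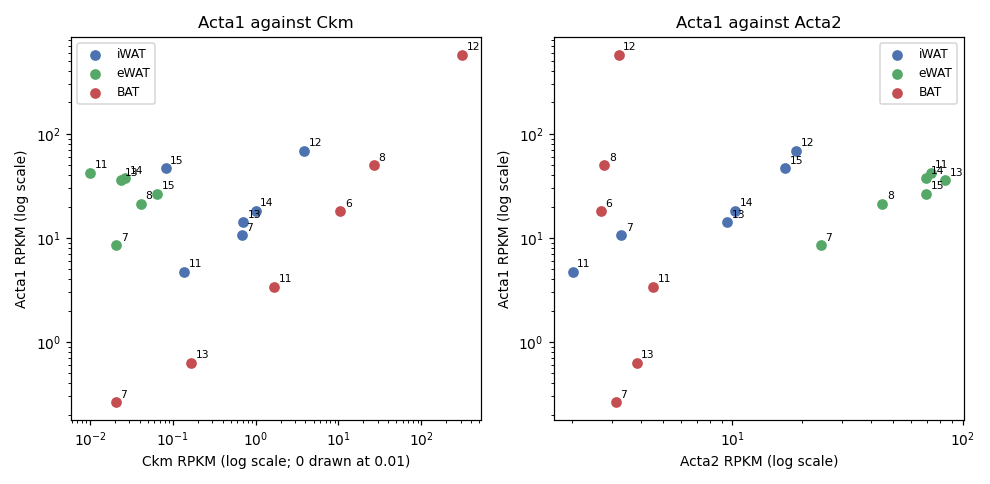
RPKM of Acta1 (vertical, log axis) against Ckm (left, log axis, 0 drawn at 0.01) and against Acta2 (right, log axis) in iWAT (blue), eWAT (green) and BAT (red), each point labelled with its mouse number. In BAT Acta1 is higher where Ckm is higher, at Acta2 values of 2.69 to 4.53, and in iWAT the mice have the same order for Acta1 and Acta2.

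Mb, myoglobin, the oxygen store of muscle fibres (chromosome 15, 76845917 to 76881100, minus strand), had a flat level in white adipocytes, as did Myl1. It was 2.89 to 4.84 in iWAT and 2.37 to 3.63 in eWAT, against 117.1 in the BAT of mouse 12, 9.20 in mouse 8, 5.11 in mouse 6, 1.23 in mouse 11, 1.05 in mouse 13 and 0.582 in mouse 7. Few of the eWAT reads lay on the body of the gene. The transcript with a remote first exon held 82 to 122 reads there, and each of the 3 transcripts without that exon held 6 to 10. The remote exon lies at 76880955 to 76881100, and 64 of its bases, 76881037 to 76881100, overlap an exon of Apol6 on the opposite strand. Apol6 was 74.2 to 105.6 RPKM in iWAT, 69.4 to 143.8 in eWAT and 7.83 to 15.6 in BAT. The signal of the highest Mb exon was 7.97 to 8.59 times that of the whole row in the 6 iWAT samples, 5.84 and 6.16 times in the BAT of mice 7 and 13, and 1.41 to 2.56 times in the BAT of mice 6, 8, 11 and 12. In white adipocytes, reads of Mb and reads of Apol6 on this exon cannot be told apart.

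Ldb3, a protein of the Z-disc, was 0.565 to 1.38 in iWAT and 0.550 to 1.75 in eWAT, above the 0.106 to 0.160 of the BAT of mice 7, 11 and 13 and below the 10.8 of mouse 12. In eWAT most of its reads fell in its long last exon, with 69 to 190 reads on a transcript of that exon alone out of 94 to 284 on the most-read transcript. The other genes of the set were low in white adipocytes. Ckm was 3.85 in iWAT of mouse 12, 0.0820 to 1.001 in the other iWAT samples and at most 0.0647 in eWAT. In iWAT 26 of the 36 genes were highest in mouse 12, which also had the highest sum in BAT, and in iWAT of mouse 15 14 genes had 0 reads. The share of all symbols that were highest in iWAT of mouse 12 was not taken, so the 26 describe these genes alone. Myh4 made up 80.0% of the 110 fast heavy chain reads of iWAT in mouse 12 (71.6 to 86.4), and none of its heavy chain reads was Myh7 (0 of 110, Wilson upper bound 3.37%).

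Depots were compared with edgeR's quasi-likelihood test on the reads of all rows, with Benjamini-Hochberg adjustment over all rows and a threshold of 0.05. Of the 36 genes, 24 had enough reads (at least 10 in at least 6 samples), and the 12 left out were Myh7, Mylpf, Myl2, Tnnt1, Tnni1, Tnnc1, Mybpc1, Myom2, Myoz1, Tcap, Cacna1s and Xirp2, which reached 10 reads in too few samples. Between iWAT and BAT 22 of these 24 were lower in iWAT and none was higher. Of all 19733 rows 67.6% differed, 33.6% being lower and 34.0% higher in iWAT. The filter favours genes that are high in BAT, since 6 BAT samples were enough to pass it, so the count over the 24 describes the genes that passed and not the whole set. The median log2 fold change was -5.95 for the 24 genes and 0.01 for all rows, and -2.52 for the 17 genes with enough reads without the BAT sample of mouse 12 (-5.09 for the same genes with it). With the mouse number as a block, which 4 mice share, 11 of the 24 passed, beside 59.3% of all rows. Without the BAT sample of mouse 12, 17 genes had enough reads and 12 passed, all lower in iWAT, beside 64.3% of all rows that differed in either direction.

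The genes whose 6 iWAT values lay wholly below the 6 BAT values were Myl1, Myl3, Actn2, Myom1 and Des, 5 of 36, and no gene had its iWAT values wholly above. All 5 were among the 24 genes with enough reads. Of all rows with enough reads, 16.0% lay wholly below and 31.6% wholly above. For Des the log2 fold change of iWAT over BAT was -3.08 (SE 0.49, edgeR adjusted p = 7.4e-05), and -2.31 (SE 0.22, edgeR adjusted p = 1.02e-06) without mouse 12. For Myom1 it was -4.28 (SE 0.73, edgeR adjusted p = 0.000131), and -3.02 (SE 0.28) without mouse 12. For Myl1 it was -1.30 (SE 0.39, edgeR adjusted p = 0.00907), -0.63 (SE 0.10) without mouse 12, and -1.03 with an edgeR adjusted p of 0.0744 under the block. For Eno3, whose groups overlapped by 1 sample on each side, it was -2.97 (SE 0.73, edgeR adjusted p = 0.0025), -1.46 (SE 0.26) without mouse 12, and -1.85 with an edgeR adjusted p of 0.0667 under the block. Myl3 and Actn2 had log2 fold changes of -8.11 (SE 1.55) and -7.41 (SE 1.58), but they had 10 reads in no white sample and entered the test through BAT alone, so that their direction was set by the filter. Both had too few reads for a test once mouse 12 was left out.

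**Figure D5:**
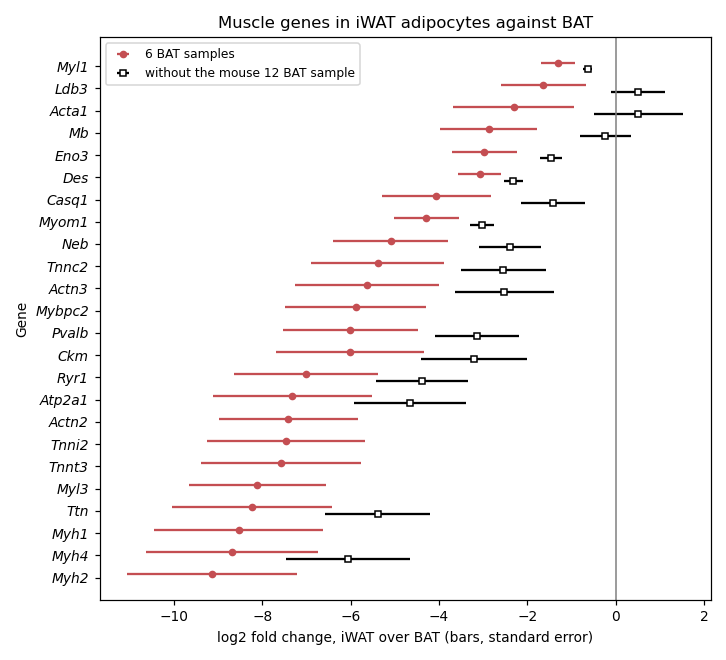
Log2 fold change of iWAT over BAT from edgeR for the 24 genes with enough reads, with standard errors, from all samples (red circles) and without the BAT sample of mouse 12 (open squares, 17 genes). Leaving out mouse 12 moves every one of the 17 genes toward 0 or past it, and Acta1 and Ldb3 change sign.

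Acta1 and Ldb3 did not pass. Their log2 fold changes of iWAT over BAT were -2.31 (SE 1.37, edgeR adjusted p = 0.148) and -1.64 (SE 0.96, edgeR adjusted p = 0.145), and they became 0.52 and 0.51 without mouse 12, again short of the threshold. Mb passed with -2.88 (SE 1.10, edgeR adjusted p = 0.0315) but not without mouse 12, where it was -0.23 (SE 0.58, edgeR adjusted p = 0.744), and under the block it was 0.27 (edgeR adjusted p = 0.873). Leaving out any 1 of the iWAT samples also cost Mb its call, with an edgeR adjusted p of 0.0507 to 0.0565. Ckm was -6.01 (SE 1.68, edgeR adjusted p = 0.00582), -3.21 (edgeR adjusted p = 0.0312) without mouse 12 and -3.19 (edgeR adjusted p = 0.208) under the block. Myh4 was -8.69 (SE 1.96, edgeR adjusted p = 0.00131), -6.06 (edgeR adjusted p = 0.00205) without mouse 12 and -4.71 (edgeR adjusted p = 0.137) under the block.

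For eWAT and BAT, eWAT was counted by transcript and the other depots by merged gene, a difference that cannot be told apart from the depot. Of 24 genes 22 were lower in eWAT and none was higher. Of all 18383 symbols 70.3% differed, 34.7% being lower and 35.6% higher in eWAT. Of these 24 genes, 11 had 10 reads in no eWAT sample (Ckm, Myh1, Myh2, Myh4, Myl3, Tnnt3, Tnni2, Actn2, Actn3, Mybpc2 and Atp2a1) and passed the filter through other depots, and all 11 were among the lower calls. The median log2 fold change was -7.16 for the 24 genes and 0.03 for all symbols, and -2.56 for the 17 genes with enough reads without mouse 12 (-4.57 for the same genes with it). The 24 include the 11 genes without 10 reads in any eWAT sample, so their median is in part set by the filter. With the block 16 of the 24 passed, beside 62.0% of all symbols. Without the BAT sample of mouse 12, 13 of 17 genes passed, beside 67.5% of all symbols in either direction. Values of eWAT lay wholly below those of BAT for 9 of 36 genes, Myh2, Myh4, Myl1, Myl3, Actn2, Mybpc1, Atp2a1, Eno3 and Des, and wholly above for none. Of the 24 genes with enough reads 8 lay wholly below and 0 above, beside 11.5% and 50.3% of all symbols with enough reads. Of these 8, Myh2, Myh4, Myl3, Actn2 and Atp2a1 had 10 reads in no eWAT sample, so the filter favoured their place below BAT. The others were Myl1, Eno3 and Des. The log2 fold change of eWAT over BAT was -2.98 (SE 0.43, edgeR adjusted p = 5.41e-06) for Des, -4.31 (SE 0.68, edgeR adjusted p = 1.72e-05) for Eno3 and -2.23 (SE 0.36, edgeR adjusted p = 2.29e-05) for Myl1, and all 3 passed under the block. Without mouse 12 these were -2.22 (SE 0.21), -2.82 (SE 0.26) and -1.56 (SE 0.14), and all 3 passed. Acta1 (-2.26, edgeR adjusted p = 0.101) and Ldb3 (-1.36, edgeR adjusted p = 0.155) again did not pass.

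Between iWAT and eWAT, which were prepared in the same way, edgeR called 0 of the 24 genes, beside 25.6% of all symbols (12.3% lower and 13.4% higher in iWAT). At an unadjusted p under 0.05 there were 2, DESeq2 called 4 (Ckm, Atp2a1, Myh4 and Myl1) and limma on log2(RPKM + 1) called 0. The shares of all symbols under these settings were not taken. This fit takes its spread from all 18 samples, and without the BAT sample of mouse 12 it called 3 of 17, beside 25.2% of all symbols. These were Ckm with a log2 fold change of iWAT over eWAT of 5.02 (SE 1.59, edgeR adjusted p = 0.0281), Eno3 with 1.31 (SE 0.24, edgeR adjusted p = 0.000981) and Myl1 with 0.89 (SE 0.14, edgeR adjusted p = 0.000194). These are reads on merged rows against reads on 1 eWAT transcript, which for Myl1 and Eno3 is shorter, and the way of counting cannot be told apart from the depot. On the length-scaled RPKM the means of Myl1, 9.03 ± 0.64 (SD, n = 6) for iWAT against 8.11 ± 1.77 (SD, n = 6) for eWAT, came from samples that overlapped. Without overlap, Ckm was higher in iWAT (1 of the 24 genes with enough reads, beside 1.95% of all such symbols) and Myom1 lower (1 of 24, beside 30.4%). For Acta1 the log2 fold change of iWAT over eWAT was -0.08 (SE 1.16, edgeR adjusted p = 0.968).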

How the data were processed

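RNA of floating iWAT and eWAT adipocytes and of frozen BAT had been made into NEBNext Ultra libraries, and the authors mapped the reads to mm9 and counted them with the Genomatix Genome Analyzer. Cutadapt 1.16 and HISAT2 2.1.0 are named in the submitters' processing notes without a role, and the strandedness of the counting is not given in the sources used here. The deposited tables hold a read count and an RPKM per row, and the deposited signal values (NE, of the highest exon and of the whole row) were used for the spread of reads over exons. Tables of iWAT and BAT have 53445 rows of merged exons and tables of eWAT have 189660 transcripts, so the way of counting follows the depot. A symbol was represented by its merged row or, in eWAT, by its most-read transcript. Neb has 2 merged rows, and the longer row was used. The 36 genes, the gene lists and the comparisons were chosen with earlier results of these data known.

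From the deposited counts, edgeR 4.0.16 (glmQLFit and glmQLFTest, TMM, R 4.3.3) was run taking as library size the total that the RPKM values imply and keeping rows that reached 10 reads in 6 or more samples, and the standard error was taken as the size of the log2 fold change over the square root of F. IWAT and BAT were fitted over 19733 merged rows of 12 samples, and eWAT was compared in a fit of 18383 symbols in 18 samples. Alternatives were a block for the mouse, DESeq2 1.42.0, limma 3.58.1 on log2(RPKM + 0.1) and log2(RPKM + 1), other filters and scalings, and leaving out each sample. Same-numbered samples of different depots, read from the titles as the same mouse, had correlations of their deviations from the depot means of -0.038 to 0.125 (iWAT and BAT, 4 pairs), -0.143 to 0.053 (eWAT and BAT, 4 pairs) and -0.311 to 0.143 (iWAT and eWAT, 5 pairs). If a number does not mark a mouse, p-values measure only the spread between these samples. On simulated counts 189 of 200 changed rows were called between iWAT and BAT, with 10 unchanged rows, and 180 of 200 between iWAT and eWAT, with 10. The changed rows had a median log2 fold change of 1.99 and 2.01 in size, and all other rows were equal between depots. No simulated library was set apart as the BAT of mouse 12 is, so these counts do not show how calls hold with such a library. Intervals of shares and of ratios between samples are 95% intervals (Wilson for shares). They cover counting error only, since they are drawn from the reads of single libraries and hold no spread between mice. The libraries carry no molecular identifiers, so duplicate reads cannot be told apart. All 36 genes could be named. Described in full were the 5 genes with the highest mean in each depot and those past the threshold, and genes kept in the BAT of mouse 7 were chosen after their values were seen. Promoters came from a RefSeq table of GRCm38.p6, whose coordinates are not those of mm9.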

Additional observations from a re-analysis of the deposited data

Results flagged for a closer look

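In each depot the genes with a mean RPKM of at least 0.1 were examined for a sample far from the other 5 (Dixon's ratio above its 95% critical value), and 48 of 69 such sets of values held one, where about 3.45 would be expected by chance. The genes are not independent of each other. In BAT all 36 genes were concerned, each through the sample of mouse 12. Of the motors and light chains, RPKM values there were 39.3 for Myh1, 51.8 for Myh2, 249.6 for Myh4, 19.7 for Myh7, 100.1 for Mylpf, 53.7 for Myl1, 13.1 for Myl2 and 20.1 for Myl3. Of the thin filament they were 576.5 for Acta1, 13.4 for Tnnt1, 103.5 for Tnnt3, 17.9 for Tnni1, 114.3 for Tnni2, 20.6 for Tnnc1, 185.8 for Tnnc2 and 6.69 for Neb. Of the scaffold they were 10.2 for Actn2, 49.4 for Actn3, 5.86 for Ttn, 23.8 for Mybpc1, 24.3 for Mybpc2, 6.04 for Myom1, 4.74 for Myom2, 34.9 for Myoz1, 10.8 for Ldb3, 90.3 for Tcap, 42.4 for Des and 10.2 for Xirp2. Of the calcium and energy genes they were 34.7 for Casq1, 281.6 for Atp2a1, 8.36 for Ryr1, 160.2 for Pvalb, 7.83 for Cacna1s, 310.3 for Ckm, 117.1 for Mb and 50.4 for Eno3.

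The same mouse stood out in iWAT for 7 genes, with RPKM values of 3.85 for Ckm, 0.453 for Myh4, 2.06 for Tnnc2, 0.763 for Actn3, 0.689 for Tcap, 0.877 for Casq1 and 1.51 for Atp2a1. In iWAT of mouse 14 Des was 3.31. In eWAT of mouse 15, Tnni2 was 0.366, Myom1 0.734 and Ryr1 0.391, and in eWAT of mouse 14 Tnnc2 was 0.813.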

How the results depend on the processing

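Between iWAT and BAT the count of genes called by edgeR, 22 of 24, fell to 11 with the mouse number as a replicate block, to 12 of 13 with an adjusted p from DESeq2 (the other 11 had none), to 12 with limma on log2(RPKM + 0.1) and to 6 on log2(RPKM + 1), and rose to 34 of 36 without the filter. Leaving out samples gave 12 to 21, with 12 of 17 without the BAT of mouse 12. Between eWAT and BAT it was 34 of 36 without the filter, 2 of 2 on rows shared by both kinds of table and 13 to 22 with a sample left out, with 13 of 17 without the BAT of mouse 12. Between iWAT and eWAT it was 4 with DESeq2, 1 with the eWAT transcript of highest RPKM, and 0 to 3 with a sample left out, with 3 without the BAT of mouse 12. Shares of all rows were taken only for the main fit, the block and the fit without the BAT of mouse 12. Counts under the other settings therefore describe these genes alone. Genes with a mean RPKM of at least 0.1 numbered 18 in iWAT and 15 in eWAT, and of at least 10, 1 in each and 15 in BAT. By medians 15 reached 1 in BAT, and leaving out samples gave 17 (without mouse 12) to 36.

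Acta1, Ldb3 and Mb changed direction. For Acta1, iWAT over BAT was 1.43 on the log2 scale with the block, 1.08 and 0.61 with limma on log2(RPKM + 0.1) and log2(RPKM + 1), and -2.78 to 0.52 with a sample left out, and eWAT over BAT was 1.96, 1.53, 1.03 and -2.54 to 0.55. For Ldb3, iWAT over BAT was 0.65 with the block, 0.34 with limma on log2(RPKM + 0.1) and -1.92 to 0.51 with a sample left out, and eWAT over BAT was 0.94, 0.87, 0.17 with limma on log2(RPKM + 1), and -1.63 to 0.76. For Mb, iWAT over BAT was 0.27 with the block. The positive ends of these ranges came without the BAT of mouse 12, and the cause of the other changes was not tested. Of the further values for single genes, 840 kept direction and call and 67 lost the call, most under limma or the block.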

Other observations

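Of 45 genes of skeletal muscle outside the 36, 40 were highest in the BAT of mouse 12, and 36 exceeded 3 times the median of the other mice. Tpm2, a tropomyosin of the thin filament, was 90.2 RPKM in mouse 12 and 1.27 to 8.55 in the other mice, Pygm, muscle glycogen phosphorylase, was 50.9 against 0.565 to 4.93, and Pgam2, muscle phosphoglycerate mutase, was 46.5 against 0.707 to 4.22. Myf6, a myogenic factor of mature fibres, was 2.68 in mouse 12, and Myod1 was 0.365 and Myog 0.152. The genes that were not highest in mouse 12 were Cox7a1, Cox8b and Fabp3, which brown fat uses for respiration and fatty acid handling, together with Pln and Chrng, the latter listed at 0 in BAT. Cox8b was 970 to 1344 in all BAT samples, lowest in mouse 12, against a mean of 69.3 in iWAT and 13.6 in eWAT, and Cox7a1 was 298 to 364 in BAT, also lowest in mouse 12. Their 2 values dominate the sum of this list, which was 1532 to 1949 in BAT, so the sum does not follow the muscle genes. Of the genes with enough reads, edgeR called 13 of 20 lower and 2 higher in iWAT than in BAT, beside 33.6% and 34.0% of all rows. For eWAT against BAT it called 13 of 21 lower and 4 higher, beside 34.7% and 35.6% of all symbols. For iWAT against eWAT it called 1 of 21 higher and 1 lower, beside 13.4% and 12.3%. The filter favours genes that are high in BAT, and these counts include the BAT of mouse 12.

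Among 8 heart genes, 3 were highest in the BAT of mouse 12. The sum of all 8 was 10.4 there and at most 1.03 in the other BAT mice. Myh6, the close relative of Myh7, was 9.17 in mouse 12. Of 9 smooth muscle and pericyte genes 1 was highest in mouse 12 and 0 exceeded 3-fold, with a sum of 100.5 in mouse 12. None of the 8 brown adipocyte, 5 adipocyte, 5 macrophage and 4 endothelial genes was highest in mouse 12. Their sums in mouse 12 were 1900, 905.4, 23.4 and 50.9, and the brown adipocyte sum was the lowest of the 6 BAT samples. The 4 epididymis genes summed to at most 73.7 in eWAT and 0.0542 in BAT and were at 0 in iWAT.

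The 10 genes outside the 36 with the highest ratio of mouse 12 to the highest of the other BAT mice, among genes with a mean BAT RPKM of at least 1, were D830015G02Rik (41.7), Myh6 (27.5), Cox6a2 (18.2), AK076663 (18.2), Ddit4l (17.5), Kbtbd10 (15.7), Hfe2 (13.95), AK042040 (13.7), Apobec2 (13.6) and Ube2c (13.2). Cox6a2 is the muscle form of a cytochrome oxidase subunit, and Kbtbd10 and Apobec2 are muscle genes. Ube2c overlaps the exons of Tnnc2.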
